A study of Mus musculus with 18 samples.

Results

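CpG-rich promoter peaks were followed in an ATAC-seq series on macrophages given the BET inhibitor (+)-JQ1, the cytokine IL-10 and bacterial lipopolysaccharide (LPS). ATAC-seq inserts sequencing adapters into open DNA with the transposase Tn5, and a peak is a stretch where the inserts pile up. A member is a peak from the authors' promoter table, less than 4000 bp wide, whose mm9 sequence has a GC content of 55% or more and an observed/expected CpG ratio of 0.6 or more (the CpG count times the length, divided by the product of the C and G counts). The rule used sequence, width and the promoter class, and no count. It chose 6701 of the 36670 promoter peaks (18.3%), out of 194284 peaks in all.

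The cells were bone marrow-derived macrophages (BMDMs) of 3 Il10-/- mice on the C57BL/6J background, 12-week-old males, so every group lacked its own IL-10 and no wild-type library was analysed here. Marrow was cultured for 6 days in RPMI medium with 10% serum and 10% L929-conditioned medium. The cells then stood for 12 h with 500 nM (+)-JQ1, with 10 ng/mL IL-10 or with neither, and afterwards for 4 h with 50 ng/mL LPS or with PBS, 16 h in all. This gives 6 groups of 3 libraries, called unstimulated, (+)-JQ1, IL-10, LPS, LPS + (+)-JQ1 and LPS + IL-10, and the series describes its samples as matched across conditions. The replicate numbers were taken to mark that match; no source used here ties a number to a mouse. P-values therefore measure the spread among cultures of 3 mice.

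Most vertebrate DNA is poor in CpG because methylated cytosine mutates readily, and CpG islands are the stretches that escaped methylation. They cover the start sites of nearly all housekeeping genes and of many developmental regulators, and they are often open before any stimulus, whereas many inducible cytokine promoters are CpG-poor and wait for nucleosome remodelling. BET proteins read acetylated histones at promoters and enhancers and help to recruit P-TEFb, the kinase that frees paused RNA polymerase II, and (+)-JQ1 displaces them. LPS acts through TLR4 and NF-kappaB, and IL-10 through its receptor and STAT3.

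Sequences of peaks that led the comparisons are given first, as 300 bases taken at or as near as possible to the middle of the peak without an annotated UTR base (mm9). CpG dinucleotides are in capitals. Among called members averaging at least 50 normalized counts, Shisa9 had the largest fall with LPS, Tmem8 and Cyp46a1 the largest rise and fall of LPS + (+)-JQ1 against LPS, Gm10463 the largest rise of LPS + IL-10 against LPS, and Setd5 the highest mean level of all members. The windows held between 22 and 41 CpG dinucleotides.
Shisa9 (chr16:11984482-11984781, + strand): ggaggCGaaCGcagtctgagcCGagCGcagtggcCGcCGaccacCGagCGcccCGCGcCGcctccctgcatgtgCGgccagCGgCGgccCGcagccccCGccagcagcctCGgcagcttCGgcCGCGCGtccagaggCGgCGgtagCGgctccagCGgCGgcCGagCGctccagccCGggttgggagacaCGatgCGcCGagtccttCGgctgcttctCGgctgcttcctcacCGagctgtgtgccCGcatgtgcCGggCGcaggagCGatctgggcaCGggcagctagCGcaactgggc
Tmem8 (chr17:26250395-26250694, + strand): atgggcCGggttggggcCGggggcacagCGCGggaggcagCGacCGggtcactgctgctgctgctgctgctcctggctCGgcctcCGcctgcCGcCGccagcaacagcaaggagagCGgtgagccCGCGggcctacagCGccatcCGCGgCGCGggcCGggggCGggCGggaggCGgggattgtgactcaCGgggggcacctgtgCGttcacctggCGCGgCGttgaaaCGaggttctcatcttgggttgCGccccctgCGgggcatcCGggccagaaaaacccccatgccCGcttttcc
Cyp46a1 (chr12:109572028-109572327, + strand): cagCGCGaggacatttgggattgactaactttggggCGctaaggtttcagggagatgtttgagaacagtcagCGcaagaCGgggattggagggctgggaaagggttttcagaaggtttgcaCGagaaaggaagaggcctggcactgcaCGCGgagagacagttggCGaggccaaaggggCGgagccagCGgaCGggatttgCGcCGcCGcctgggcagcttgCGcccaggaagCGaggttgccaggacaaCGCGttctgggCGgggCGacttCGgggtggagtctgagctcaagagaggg
Gm10463 (chr5:32435653-32435952, - strand): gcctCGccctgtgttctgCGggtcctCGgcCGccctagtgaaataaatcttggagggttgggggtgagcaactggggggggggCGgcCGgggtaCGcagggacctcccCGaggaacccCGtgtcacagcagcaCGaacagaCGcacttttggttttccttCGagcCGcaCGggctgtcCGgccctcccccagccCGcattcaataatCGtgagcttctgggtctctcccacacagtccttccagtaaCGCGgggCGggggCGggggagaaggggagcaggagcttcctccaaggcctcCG
Setd5 (chr6:113026623-113026922, + strand): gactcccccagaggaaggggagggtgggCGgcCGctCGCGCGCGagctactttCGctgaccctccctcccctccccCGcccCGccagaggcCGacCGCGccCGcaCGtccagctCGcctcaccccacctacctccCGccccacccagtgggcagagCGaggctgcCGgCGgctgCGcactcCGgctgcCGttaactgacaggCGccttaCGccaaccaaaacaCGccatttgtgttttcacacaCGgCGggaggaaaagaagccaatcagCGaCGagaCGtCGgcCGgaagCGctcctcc

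The members differed from other promoter peaks in the 2 sequence measures of the rule and in CpG count, which follows from them. Their median GC content was 63.3% against 48.0% in the 27001 other promoter peaks under 4000 bp and 45.6% in the 157614 distal peaks. The median observed/expected ratio was 0.795, against 0.236 and 0.186, and a member held a median of 85 CpG dinucleotides where another promoter peak held 16. Median widths were alike, at 1026 bp for members, 1156 bp for other promoter peaks and 906 bp for distal peaks. The 5 members nearest the GC limit had up to 55.003%, and the 5 peaks just outside it 54.970% to 54.986%. At the ratio limit the corresponding values were 0.60005 to 0.6008 and 0.5993 to 0.59995, and at the width limit 3930 to 3986 bp and 4009 to 4077 bp.

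**Figure D1:**
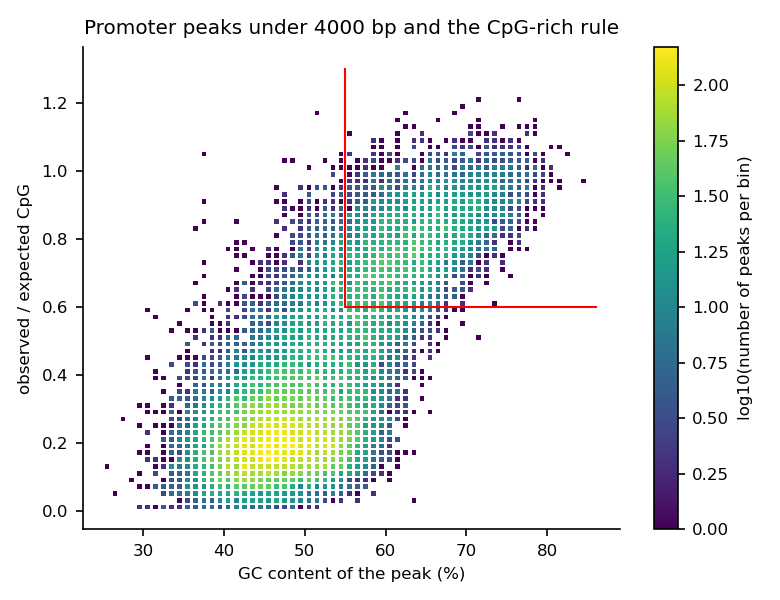
GC content (x axis, %) and observed/expected CpG ratio (y axis) of promoter peaks under 4000 bp, coloured by the log10 number of peaks per bin; the red lines mark the rule. The densest bins lie near 45% GC and a ratio of 0.2, and the 6701 members form the upper right arm.

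Members sat squarely on start sites of coding genes. In the GENCODE vM1 annotation of mm9, 6336 members (94.6%) belonged to the start of a protein-coding gene, against 63.8% of other promoter peaks, and these starts named 6235 genes. Among peaks with a coding start, the start lay inside 96.9% of members and 56.7% of the others, at a median of 134 bp from the middle of the peak against 600 bp. On the same base of peaks with a coding start, an annotated UTR of the gene (either end) was overlapped by 96.1% of members against 46.9%. Its coding sequence was overlapped by 65.6% against 44.1%. A divergent partner was a second coding gene on the opposite strand whose window, 1000 bp before to 100 bp after its start, overlapped the peak. Its start need not lie inside the peak, and the order of the 2 starts was not checked. One was found for 771 members, 12.2% of those with a coding start against 3.37% of other promoter peaks. No start was annotated at 224 members, and 156 members (2.33%) were on the X chromosome.

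The letters of the core promoter motifs followed the same division. Motifs were searched on both strands of the central 500 bases. The NRF1 motif GCGCNTGCG was in 14.7% of members, 1.51% of other promoter peaks and 3.85% of all tested promoter peaks, wide ones included. The GC box GGGGCGGGG, the letters bound by SP and KLF proteins, was in 26.3%, 3.78% and 7.90%. The YY1 motif ATGGCGG was in 16.0%, 2.56% and 5.03%, the ETS motif CCGGAAGT in 7.06%, 1.36% and 2.33%, and the cyclic AMP response element TGACGTCA in 2.52%, 0.774% and 1.06%. TATAAA went the other way, in 3.81%, 22.3% and 18.7%, as did the AP-1 motif TGANTCA, in 4.19%, 14.9% and 12.7%, and the interferon element GAAANNGAA, in 6.40%, 15.7% and 13.8%. The kappaB motif GGANTTTCC was about equally common, in 1.66%, 2.06% and 1.94%. NRF1, GC box, YY1, ETS and cyclic AMP response letters contain CG, which the rule itself selects for.

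Single copies from peaks of the gene lists described further on show how these letters stand in their surroundings. Each window is from mm9 with the motif in capitals, on the strand of the gene, so a motif may appear as its reverse complement. Hspa8 encodes a constitutive heat shock protein, Fosl2 an AP-1 subunit, Relb an NF-kappaB subunit, Ifngr2 a chain of the interferon-gamma receptor, and Zfp36l2 an RNA-binding protein that destabilises mRNAs. The Trappc4 peak also holds the start of Rps25, a ribosomal protein gene.
Hspa8, NRF1 (chr9:40608988-40609048, + strand): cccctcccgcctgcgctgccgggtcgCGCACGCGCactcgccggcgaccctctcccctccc
Fosl2, GC box (chr5:32437667-32437727, + strand): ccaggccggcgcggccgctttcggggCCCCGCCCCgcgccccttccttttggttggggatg
Trappc4, ETS (chr9:44215698-44215757, - strand): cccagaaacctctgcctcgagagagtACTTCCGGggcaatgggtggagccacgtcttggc
Zfp36l2, YY1 (chr17:84586930-84586988, - strand): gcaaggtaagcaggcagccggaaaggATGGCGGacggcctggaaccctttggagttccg
Relb, cyclic AMP response element (chr7:20214827-20214886, - strand): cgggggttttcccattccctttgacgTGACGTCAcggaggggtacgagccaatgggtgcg
Ifngr2, kappaB (chr16:91547203-91547263, + strand): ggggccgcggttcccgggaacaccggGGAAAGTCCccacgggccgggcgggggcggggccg

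The members were far more accessible than the other peaks. Over the 18 libraries the median member had 30.4 CPM, the count scaled to library size (quartiles 16.3 and 43.2), against 2.69 CPM for other promoter peaks and 1.51 CPM for distal peaks. Per kilobase of peak the medians were 29.7, 2.00 and 1.55 CPM. The median member rested on 578.5 raw counts per library, against 49 and 27, and its median SD among the 3 libraries of a group was 0.186 on the log2 scale, against 0.276 and 0.348. Peak by peak, replicates of members thus varied less than those of other promoter peaks under 4000 bp and of distal peaks, which hold fewer counts. Promoter peaks of 4000 bp or more, 2968 in all, had a lower SD per peak, 0.143, and a median of 2.72 CPM per kilobase. As a class, members varied more between replicates. The SD of a library's median deviation from the peak means was 0.288 in unstimulated members. It was 0.022 in other promoter peaks and 0.033 in distal peaks. With IL-10, where members varied least, it was 0.030, 0.019 and 0.009.

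The strongest members were at Setd5, which encodes a SET domain protein (131 CPM), Sp4, a GC-box factor (121 CPM), Ypel5 (113 CPM), Gsk3b, the kinase GSK3-beta (112 CPM), and Klf13, a Krüppel-like factor (108 CPM). For Setd5 (chr6:113026021-113027524) the normalized counts of replicates 1, 2 and 3, here counts after TMM scaling to the mean library size, were 1592, 1711 and 2441 in unstimulated cells, 2726, 3413 and 2896 with (+)-JQ1, 2510.4, 2759 and 2697 with IL-10, 3005, 2490.0 and 2597 with LPS, 2425, 2866 and 2289 with LPS + (+)-JQ1 and 2201, 2073 and 1621 with LPS + IL-10. Unstimulated replicates 1 and 2 and LPS + IL-10 replicate 3 were the lowest libraries, and unstimulated replicate 3 stood with the LPS + (+)-JQ1 libraries.

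The libraries held 12020526 to 25908198 counts in peaks, the lowest being unstimulated replicate 1, which also had the highest TMM factor, 1.24. By the labels, lane 5 held replicate 1 of every group and lane 6 replicate 3, and replicate 2 was split, its groups with LPS on lane 6 and the other groups on lane 5. Of 10 macrophage marker symbols 8 had a promoter peak, and Adgre1 and Emr1 (F4/80) name the same gene. None of the peaks of these 8, Csf1r and Emr1 among them, was CpG-rich. Their summed level was 128 to 198 CPM in unstimulated libraries, 247 to 260 with (+)-JQ1, 211 to 216 with IL-10, 187 to 194 with LPS, 217 to 247 with LPS + (+)-JQ1 and 193 to 223 with LPS + IL-10. No promoter peak was found under the symbols Spi1 (macrophage), Cd3d, Cd3e and Cd3g (T cell), Ncr1 (natural killer) and Ly6g (neutrophil). Genes were matched by symbol alone, so a gene annotated under another symbol would be missed. Of the 42 symbols of the macrophage lineage list, which holds Spi1, 38 were in the annotation. The lack of a peak under Spi1 therefore does not show a closed promoter. Other genes of the T cell, natural killer and neutrophil lists did have one. By their strongest peak Lck (T cell) averaged 17.8 CPM and Klrb1c (natural killer) 11.3. The neutrophil genes Elane, Camp and Mpo averaged 27.5, 8.46 and 2.02 CPM, against 28.6 for Emr1. Summed levels of marker lists over all libraries were 0.340 to 2.41 CPM for endothelium, 5.33 to 9.24 for epithelium, 12.6 to 21.0 for B cells, 14.2 to 30.6 for T cells, 28.0 to 53.9 for neutrophils and 45.3 to 58.7 for fibroblasts. These lists were not tested against the members' changes. In bulk libraries a change in the share of cells with an open site and a change of openness per cell cannot be told apart.

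The share of each library's counts that fell in members was highest with (+)-JQ1. Members are 3.45% of the tested peaks and 2.88% of their width, yet took 16.1% to 25.7% of the counts. Replicates 1, 2 and 3 had 16.1%, 17.8% and 20.2% in unstimulated cells, 22.9%, 25.7% and 23.5% with (+)-JQ1, 20.9%, 21.0% and 21.4% with IL-10, 21.6%, 19.9% and 19.99% with LPS, 20.7%, 22.4% and 20.4% with LPS + (+)-JQ1, and 18.5%, 18.1% and 16.9% with LPS + IL-10. Unstimulated libraries had the widest spread, and replicate 3 of that group reached the LPS group. The means ± SD (n = 3) were 18.05% ± 2.07, 24.02% ± 1.48, 21.1% ± 0.288, 20.5% ± 0.935, 21.1% ± 1.10 and 17.8% ± 0.832 in the same order. The mean share of distal peaks was lowest where that of members was highest, 57.0%, 50.5%, 53.5%, 54.1%, 53.2% and 56.8%.

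The difference in share was 5.98 percentage points for (+)-JQ1 against unstimulated (3.24 to 7.88 over the same-numbered pairs), 3.08 for IL-10 (1.23 to 4.80), 2.43 for LPS (-0.231 to 5.46), 0.651 for LPS + (+)-JQ1 against LPS (-0.902 to 2.49) and -2.66 for LPS + IL-10 against LPS (-3.10 to -1.82). Exact two-sided permutation tests gave p = 0.1, 0.1, 0.3, 0.5 and 0.1 in this order, and 0.167, 0.167, 0.375, 0.5 and 0.167 after Benjamini-Hochberg adjustment over the 5 comparisons. With 3 libraries against 3 the smallest possible p is 0.1, and over the 3 pairs 0.25, so no share could pass 0.05. The (+)-JQ1 and IL-10 groups lay wholly above the unstimulated group, and the LPS + IL-10 group wholly below the LPS group.

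**Figure D2:**
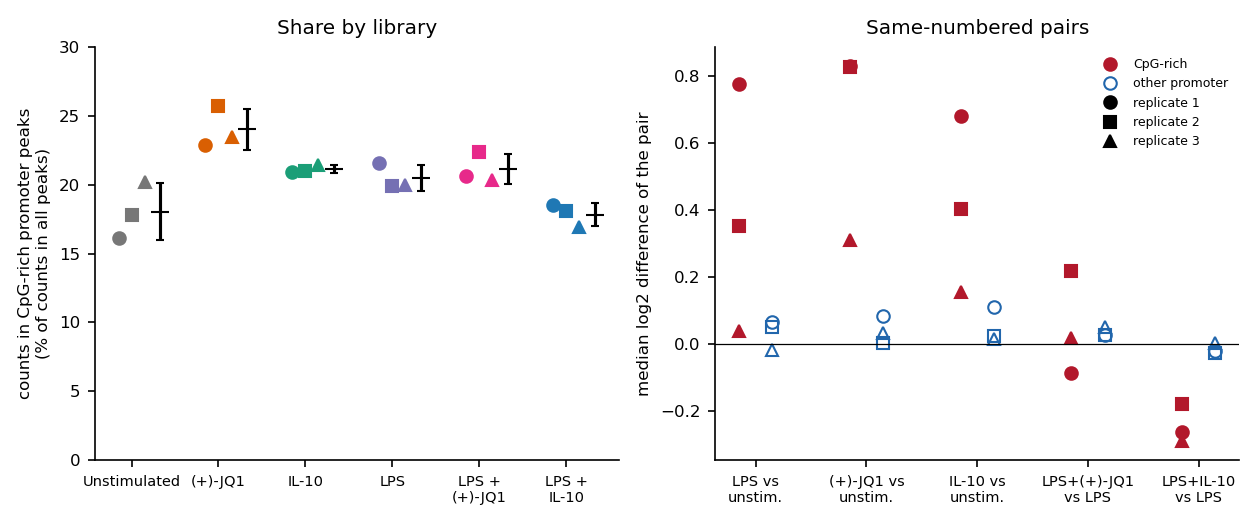
Left, share of each library's counts in CpG-rich promoter peaks (y axis, %) by group, with mean ± SD (n = 3) beside the points; right, median log2 difference of each same-numbered pair (y axis) for CpG-rich (filled) and other promoter peaks (open). The (+)-JQ1 libraries sit between 22.9% and 25.7%, above all other libraries, of which the next is LPS + (+)-JQ1 replicate 2 at 22.4%, and the filled points of replicate 3 lie closest to 0 in the comparisons with unstimulated cells.

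Single peaks were then compared with edgeR's quasi-likelihood test over all 194230 peaks that passed its filter, which kept every member. A peak was called where the Benjamini-Hochberg FDR was under 0.05 and the absolute log2 fold-change above 0.5. Fold-changes are relative to the scaling of the libraries. Here it changed the number of calls and, in some settings, whether rises or falls prevailed. Under the TMM factors used throughout, the median of all peaks was -0.03, -0.09, -0.05, -0.003 and -0.01 in the 5 comparisons. Scaling by total counts moved it to -0.26, -0.37, -0.26, -0.01 and 0.05, and TMM factors from the members alone to -0.42, -0.73, -0.46, -0.05 and 0.23. The second of these sets the members' own median close to 0, and changes named relative to other CpG-rich promoters below use it. In all, 6 other scalings were run (RLE size factors, total counts, members alone, loess offsets on peak strength, offsets on GC content and DESeq2), and the number of them that also called a peak is given for the peaks described singly. List members named by their fold-change alone were called under TMM, with no such number given. Largest rises and falls below are those among called members whose normalized counts average at least 50 and whose 3 same-numbered pairs all move one way.

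**Figure D3:**
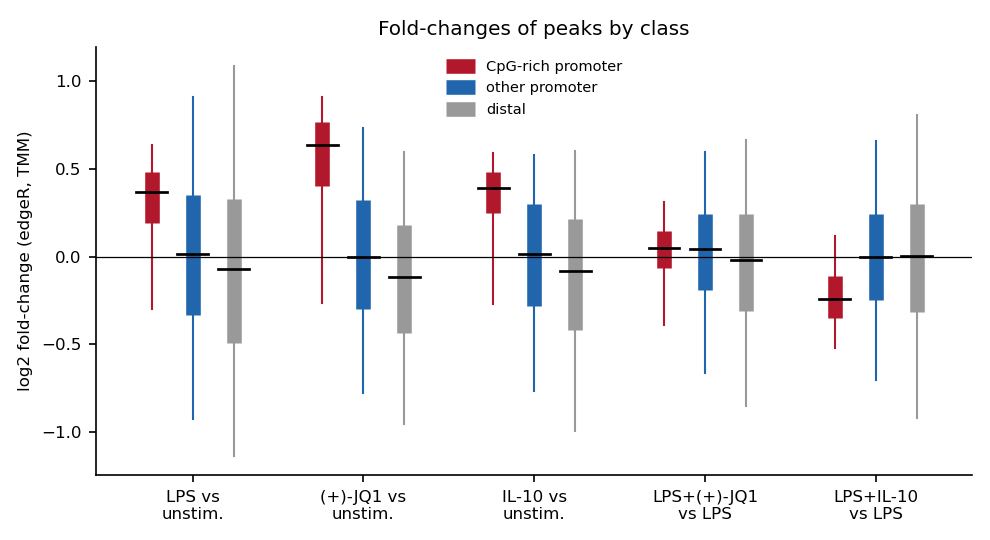
Log2 fold-changes (y axis; edgeR, TMM) of CpG-rich promoter, other promoter and distal peaks in 5 comparisons; black lines are medians, boxes the middle 50% and thin lines the 5th to 95th percentile of peaks. The members' medians are 0.37, 0.64, 0.39, 0.05 and -0.24 from left to right, with a narrower spread than either other class.

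LPS against unstimulated cells addressed what 4 h of LPS does at these promoters. Under TMM, 1370 members rose and 58 fell, 20.4% and 0.866%, where 11.7% and 10.2% of all tested peaks did. The members' median log2 fold-change was 0.37, that of other promoter peaks 0.02 and that of distal peaks -0.07. The number of rises was not stable: 71 rises and 34 falls were called under all of the 6 other scalings too, and the counts were 168 and 226 by total counts, 507 and 224 with GC offsets, 118 and 102 with loess offsets, and 79 and 413 relative to the members. Same-numbered medians were 0.777 in replicate 1, 0.352 in replicate 2, whose libraries were on different lanes, and 0.038 in replicate 3. Without unstimulated replicate 1 the rises numbered 414, without unstimulated replicate 3 3652, and without LPS replicate 1 682.

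The largest rise was at chr16:84703056-84703736, a 681 bp peak with 66.2% GC and a ratio of 0.984 and no annotated start, 9.53 kb upstream of Mir155, annotated as a long noncoding RNA on the + strand and the source of the inflammatory microRNA miR-155. Its normalized counts were 99.3, 113 and 138 in the unstimulated libraries and 889, 735 and 747 with LPS, so the groups were far apart. The log2 fold-change was 2.75 ± 0.16 (FDR = 1.94e-29; all 6 other scalings). With LPS + (+)-JQ1 the counts were 645, 479 and 422 and with LPS + IL-10 351, 253 and 263, both groups below LPS and above unstimulated. Either agent alone left it at 151, 167 and 152 for (+)-JQ1 and 133, 129.7 and 109 for IL-10.

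Marcksl1, an actin-binding substrate of protein kinase C, followed with 205, 279.7 and 298.5 against 1148, 1026 and 1119 and a log2 fold-change of 2.07 ± 0.14 (FDR = 3.41e-24). Socs3, the feedback inhibitor of STAT3 signalling (chr11:117830076-117830906), went from 285, 327 and 358 to 1435, 1217 and 1216, a log2 fold-change of 1.99 ± 0.14 (FDR = 5.75e-23). Stx11, a syntaxin of vesicle fusion, went from 204, 286 and 385 to 945, 852 and 885 (1.61 ± 0.15, FDR = 6.23e-17). These 3 were called under all 6 other scalings, and no LPS library overlapped an unstimulated one.

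The falls were fewer and at weaker peaks. Shisa9, an auxiliary protein of AMPA receptors, fell from 332, 444 and 439 to 198, 175 and 196 (-1.10 ± 0.14, FDR = 4.73e-10). Fgf12, a modulator of sodium channels, had -0.94 ± 0.23 (FDR = 0.00111), the adenylate cyclase gene Adcy2 -0.89 ± 0.24 (FDR = 0.00297) and the zinc finger gene Zfp64 -0.78 ± 0.21 (FDR = 0.00316). All 4 were called under the 6 other scalings. Of the 58 members that fell, 52 were in the weakest of 4 equal bins of members, below 16.3 CPM.

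The rises with LPS are next given by gene list, where 20.4% of all members rose. Of 21 CpG-rich peaks of NF-kappaB pathway genes, 13 rose and none fell (median 0.56, against 0.37 for all members). Nfkb2, the p100 precursor, went from 803, 869 and 1167 to 2108, 1845 and 1728 (1.00 ± 0.14, FDR = 3.15e-09, 5 of 6 scalings), and the inhibitor gene Tnfaip3 (A20) from 479, 499 and 693 to 923, 958 and 948 (0.76 ± 0.14, FDR = 4.22e-06, 4 of 6). Nfkb1, Rel, Rela and Relb, the other subunits, rose by 0.70, 0.69, 0.59 and 0.65, and the adaptor and kinase genes Ripk2, Tbk1 and Map3k7 by 0.74, 0.71 and 0.70. These calls rest on the scaling: 6 of the 21 rose with GC offsets, 3 by total counts, 1 relative to the members and 0 with loess offsets, and relative to the members the list's median was 0.19.

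Among 31 peaks of immediate early genes 7 rose and none fell (median 0.39), near the share and median of all members, and relative to the members 3 rose and 2 fell (median 0.02). Dusp2, a phosphatase of MAP kinases, went from 557, 669.9 and 836 to 1694, 1456 and 1486 (1.17 ± 0.14, FDR = 1.15e-11), the kinase gene Pim1 from 270.3, 363 and 391 to 813, 691 and 743 (1.13 ± 0.14, FDR = 8.15e-11) and Maff, a small Maf factor, from 304, 391 and 491 to 817, 768 and 699 (0.94 ± 0.14, FDR = 3.67e-08), each under all 6 other scalings. Egr3, Egr1, Klf6 and Junb rose by 0.82, 0.61, 0.55 and 0.54. Zfp36l2 was lower in LPS, 807, 845 and 815 against 913, 1014 and 1372, with -0.42 ± 0.14, short of the fold limit. Myc, with 0.17, was not called.

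Of 11 interferon, IRF and STAT peaks 7 rose and none fell (median 0.63), and relative to the members 2 rose (median 0.26). Tapbp, which loads peptides on MHC class I, went from 263, 276 and 399 to 629, 578 and 659 (0.99 ± 0.14, FDR = 1.36e-08) and Irf2, an interferon regulatory factor, from 270.3, 307 and 379 to 661, 605 and 618 (0.98 ± 0.14, FDR = 8.73e-09), both under all 6. The shared Psmb9 and Tap1 promoter rose by 0.63. In the IL-10 receptor and STAT3 list 9 of 16 rose and none fell (median 0.54; 4 rose relative to the members), with Socs3 in front, Socs1 from 656, 718 and 1082 to 1903, 1643 and 1548 (1.05 ± 0.14, FDR = 1.42e-09, all 6) and Cish at 0.97. Of 19 proteasome peaks 11 rose (median 0.52; 1 rose relative to the members), Psma3 from 451, 528 and 637 to 1093, 1018 and 946 (0.92 ± 0.14, FDR = 3.57e-08, 5 of 6). Of 43 cytokine and effector genes only 2, Slc7a2 and Sod2, had a CpG-rich promoter peak, 32 had only other promoter peaks under 4000 bp and 6 only wider ones. Both rose, Slc7a2, an arginine transporter, by 0.96 ± 0.16 (FDR = 4.36e-07, all 6) and Sod2, the mitochondrial superoxide dismutase, by 0.58 ± 0.14 (FDR = 0.00084, 2 of 6).

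Peaks of constitutive genes were among the rises under TMM as well, where 20.4% of all members rose. Of 39 ribosomal protein peaks 8 rose and none fell (median 0.41), of 36 oxidative phosphorylation peaks 8 (0.40), of 8 housekeeping peaks 2 (0.45) and of 28 unfolded protein and heat shock peaks 10 (0.48). Of 24 BET and P-TEFb peaks 7 rose (0.43), of 31 cell cycle peaks 9 (0.36), of 44 peaks of CpG island readers and Polycomb 10 (0.36) and of 16 macrophage lineage peaks 2 (0.35), close to the 0.37 of all members. Over the 318 distinct peaks of all lists but developmental factors, 103 rose and 0 fell under TMM, and 11 rose and 5 fell relative to the members. Rpl27 went from 349.5, 444 and 498 to 784, 633 and 594 (0.64 ± 0.14, FDR = 0.000213, 3 of 6) and Eef1a1, the translation elongation factor, from 875, 907 and 1225 to 1585, 1371 and 1342 (0.51 ± 0.14, FDR = 0.00235, 2 of 6). For both, unstimulated replicate 3 was the highest of its group. Relative to the members Rpl27 had 0.26 and Eef1a1 0.14.

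(+)-JQ1 alone addressed what BET inhibition does to resting cells. Under TMM, 4563 members rose and 30 fell, 68.1% and 0.448%, against 7.85% and 3.15% of all tested peaks. The median was 0.64 in members, -0.004 in other promoter peaks and -0.12 in distal peaks. Total counts left 1534 rises and 198 falls, GC offsets 1409 and 305, loess offsets 55 and 36, and scaling to the members 1 and 870. The number of calls thus rests on the scaling. Rises outnumbered falls in all of these but the last, which sets the members' median close to 0. Under TMM and all 6 other scalings 1 rise and 4 falls held. Same-numbered medians were 0.830, 0.828 and 0.310, and 88.6%, 89.4% and 85.8% of members were above 0 in the 3 pairs.

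That 1 rise was Rcbtb2, an RCC1 and BTB domain gene, from 269, 286 and 426 to 704, 924 and 805 (1.304 ± 0.14, FDR = 1.52e-10), where LPS + (+)-JQ1 stood at 567, 715 and 601 over 501, 411 and 449.9 in LPS. Whsc2, the NELF-A subunit of the complex that pauses RNA polymerase II, went from 493, 525 and 734 to 1166, 1397 and 1223 (1.11 ± 0.14, FDR = 1.37e-08, 4 of 6), and Cic, a transcriptional repressor, had 1.11 ± 0.14 (FDR = 2.2e-08, 4 of 6). The promoter shared by 2610015P09Rik and Qtrtd1 had 1.10 ± 0.14 (FDR = 2.89e-08, 4 of 6). In each of these 4 every (+)-JQ1 library was above every unstimulated one. Weak peaks fell, among them a peak 45.3 kb upstream of Cdk1 (-0.77, 3 of 6), the receptor kinase gene Ret (-0.76 ± 0.23, FDR = 0.0142, 5 of 6) and Cadps2 (-0.75 ± 0.24, FDR = 0.0258, 4 of 6). All 30 falls lay in the weakest of the 4 bins.

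The rise with (+)-JQ1 ran across many lists, where 68.1% of all members and 7.85% of all tested peaks rose. Developmental transcription factors, given further on, stood apart, at a mean of 5.80 CPM unstimulated and 5.49 with (+)-JQ1. Under TMM all 21 NF-kappaB peaks rose (median 0.70), as did all 11 interferon peaks (0.72), 32 of 39 ribosomal (0.63), 32 of 36 oxidative phosphorylation (0.70), 26 of 28 unfolded protein (0.73), 36 of 44 peaks of CpG island readers and Polycomb (0.68) and 15 of 16 macrophage lineage peaks (0.64). Among the drug's own pathway, 24 peaks of BET proteins, P-TEFb and pause release, 23 rose and 1 fell (median 0.77). Brd3, which encodes a target of the drug, rose by 0.72, Cdk9 and Ccnt1, the subunits of P-TEFb, by 0.65 and 0.79, and Hexim1, which holds P-TEFb inactive, by 0.54. The 1 that fell was Brdt, the testis BET gene, at a mean of 0.495 CPM. Over the same 318 list peaks 267 rose and 1 fell under TMM, 90 and 1 with GC offsets, 85 and 1 by total counts, 2 and 0 with loess offsets and 0 and 7 relative to the members, and the direction of single genes is then not fixed: relative to the members Nfkb2 had -0.02 and Whsc2 0.47.

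IL-10 alone addressed the cytokine that these cells lack. Under TMM, 1337 members rose and 25 fell, 19.95% and 0.373%, against 5.16% and 3.5% of all tested peaks, with a median of 0.39. Scaling by total counts gave 38 rises and 102 falls, GC offsets 277 and 118, loess offsets 7 and 17, and scaling to the members 3 and 306. Under all 6 other scalings 3 rises and 5 falls held. Same-numbered medians were 0.681, 0.403 and 0.156. The rises numbered 206 without unstimulated replicate 1, 891 without replicate 2 and 4113 without replicate 3.

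Socs3 stood apart. Its counts were 1119, 1281 and 1346 with IL-10 alone, against 285, 327 and 358 unstimulated, about the level in LPS, with 1.95 ± 0.14 (FDR = 2.17e-20, all 6). Gm10463, a predicted gene whose peak (chr5:32435500-32436105) lies just before that of Fosl2, went from 75.4, 97 and 90.6 to 174, 174 and 196 (1.04 ± 0.17, FDR = 6.01e-06, all 6), while Fosl2 itself had 0.46 and was not called. Cplx1, a complexin, had 1.06 ± 0.24 (FDR = 0.00146, 5 of 6) and Asap2, an ARF GTPase activator, 0.97 ± 0.23 (FDR = 0.00258, 4 of 6), both at under 100 normalized counts. The largest falls were at Fgf12 (-0.82 ± 0.23, FDR = 0.0102), the POU factor gene Pou3f3 (-0.81 ± 0.18, FDR = 0.000918), the potassium channel gene Kcnd3 (-0.79 ± 0.20, FDR = 0.00477) and Ret (-0.65 ± 0.22, FDR = 0.0382), the first 3 under all 6 other scalings. Of the 16 peaks of the IL-10 receptor and STAT3 list 7 rose (median 0.48), and of 21 NF-kappaB peaks 7 (0.48). Over the 318 list peaks 82 rose and 1 fell under TMM, and 1 and 1 relative to the members.

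LPS + (+)-JQ1 against LPS addressed whether BET inhibition before LPS changes these promoters. Few members moved: 40 rose and 115 fell, 0.597% and 1.72%, against 1.74% and 3.49% of all tested peaks, and the median was 0.05. Both shares were below those of all peaks. Scaling mattered less here, since 19 rises and 92 falls held under all 6 other scalings, and scaling to the members gave 21 rises. Same-numbered medians were -0.085, 0.218 and 0.019. Without LPS replicate 1 there were 66 rises and 58 falls, without LPS replicate 2 24 rises, without LPS + (+)-JQ1 replicate 2 20 rises, and without LPS + (+)-JQ1 replicate 3 54 falls. Of the 115 falls 95 were in the weakest of the 4 bins.

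Tmem8 (chr17:26249933-26250979) had the largest rise. Its counts were 209, 273 and 301 unstimulated, 188, 181 and 134 in LPS and 269.6, 308 and 326 in LPS + (+)-JQ1, so that it was lower with LPS (-0.63 ± 0.15, FDR = 0.000564) and the inhibitor group was above LPS (0.84 ± 0.15, FDR = 1.34e-05). Rragb, a Rag GTPase that signals amino acids to mTORC1, had 62.1, 46 and 72.9 and 114, 119 and 89.6 (0.83 ± 0.20, FDR = 0.00442) and the zinc finger gene Zfp395 267, 249.6 and 264 and 316, 523 and 447 (0.73 ± 0.15, FDR = 0.000206). Both had also fallen with LPS, by 0.78 and 0.74. A peak inside Pdgfb, chr15:79843269-79844582, had 0.73 (FDR = 0.000902). All of these were called under the 6 other scalings.

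Cyp46a1, cholesterol 24-hydroxylase (chr12:109571720-109572634), had the largest fall, from 412, 357 and 325 to 149.95, 225 and 120.2 (-1.16 ± 0.16, FDR = 1.84e-08), below the unstimulated 230.1, 285 and 308. AC110909.1, a gene named by its clone that rose with LPS (1.07 ± 0.22), went from 123, 114 and 104 to 47.6, 66.6 and 40.8 (-1.15 ± 0.22, FDR = 6.16e-05). The receptor kinase gene Alk had -1.05 ± 0.21 (FDR = 0.000281) and the nuclear receptor gene Nr2f2 -1.02 ± 0.22 (FDR = 0.000842). These 4 held under all 6 other scalings, and in each the groups did not overlap.

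Some LPS rises were smaller with the inhibitor. The peak upstream of Mir155 differed from LPS by -0.63 ± 0.14 (FDR = 0.00085), Slc7a2, at 410.0, 275 and 309 in LPS and 199, 188 and 145 in LPS + (+)-JQ1, by -0.92 ± 0.15 (FDR = 6.23e-06), and Tpbg, the 5T4 antigen, at 501, 446 and 471 and 385, 262 and 314, by -0.57 ± 0.14 (FDR = 0.00406), each under all 6. Other LPS-raised peaks did not pass the test: Socs3 had -0.10 ± 0.13, Dusp2 -0.15 ± 0.13, Nfkb2 -0.13 ± 0.13, Irf2 0.03 ± 0.13 and Stx11 -0.11 ± 0.14, with FDRs from 0.633 to 0.939.

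Few peaks of the gene lists were called in this comparison. Over the 318 distinct peaks of the 14 lists other than developmental factors, edgeR called 0 rises and 1 fall, Slc7a2, and DESeq2 also 0 and 1, while 17 were above and 1 below 0 at an unadjusted p under 0.05. Of 21 NF-kappaB peaks none was called (median 0.07; 1 above and 0 below at an unadjusted p under 0.05), and none of 24 BET and P-TEFb peaks (0.06; 0 and 0). The NF-kappaB peaks averaged 48.5 ± 3.65 CPM in LPS and 49.5 ± 3.70 in LPS + (+)-JQ1, over 31.7 ± 7.26 unstimulated (SD, n = 3), so the means of the LPS groups differed by less than their SDs. Cdk6 had 0.44 ± 0.14 (FDR = 0.0427), short of the fold limit.

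Developmental transcription factors held 8 of the 9 list peaks called in this comparison. These CpG islands, Polycomb targets in many adult cells, were weak here, with a median of 1.96 CPM per kilobase against 38.4 for the NF-kappaB peaks, and 46 of 50 were in the weakest of the 4 bins. With LPS + (+)-JQ1 against LPS 8 of the 50 fell (Foxa1, Foxd3, Pax6, Tbx20, Tbx3, Twist1 and Zic1 among them) and none rose, with a median of -0.30. Falls were more frequent among weak members in general: 95 of the 1675 in the weakest bin fell (5.67%, median -0.105), against 1.72% of all members. Whether this list differs from other members of that strength was not tested. Pax6 went from 220.0, 313 and 292 unstimulated to 552, 524 and 459 with LPS (0.89 ± 0.14, FDR = 1.33e-07) and 324, 308 and 329 with LPS + (+)-JQ1 (-0.68 ± 0.14, FDR = 0.000256), both under all 6. In the other comparisons 2 rose and 1 fell with LPS (median 0.02; Six3 fell by 0.67), 1 rose and 3 fell with (+)-JQ1 (-0.19), 1 and 1 with IL-10 (-0.23), and 4 fell with LPS + IL-10 against LPS (-0.28). Their mean level was 5.80 ± 0.236 CPM unstimulated, 5.49 ± 0.308 with (+)-JQ1, 5.73 ± 0.142 with IL-10, 6.64 ± 0.280 with LPS, 5.56 ± 0.309 with LPS + (+)-JQ1 and 5.75 ± 0.154 with LPS + IL-10, highest in the LPS group.

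**Figure D4:**
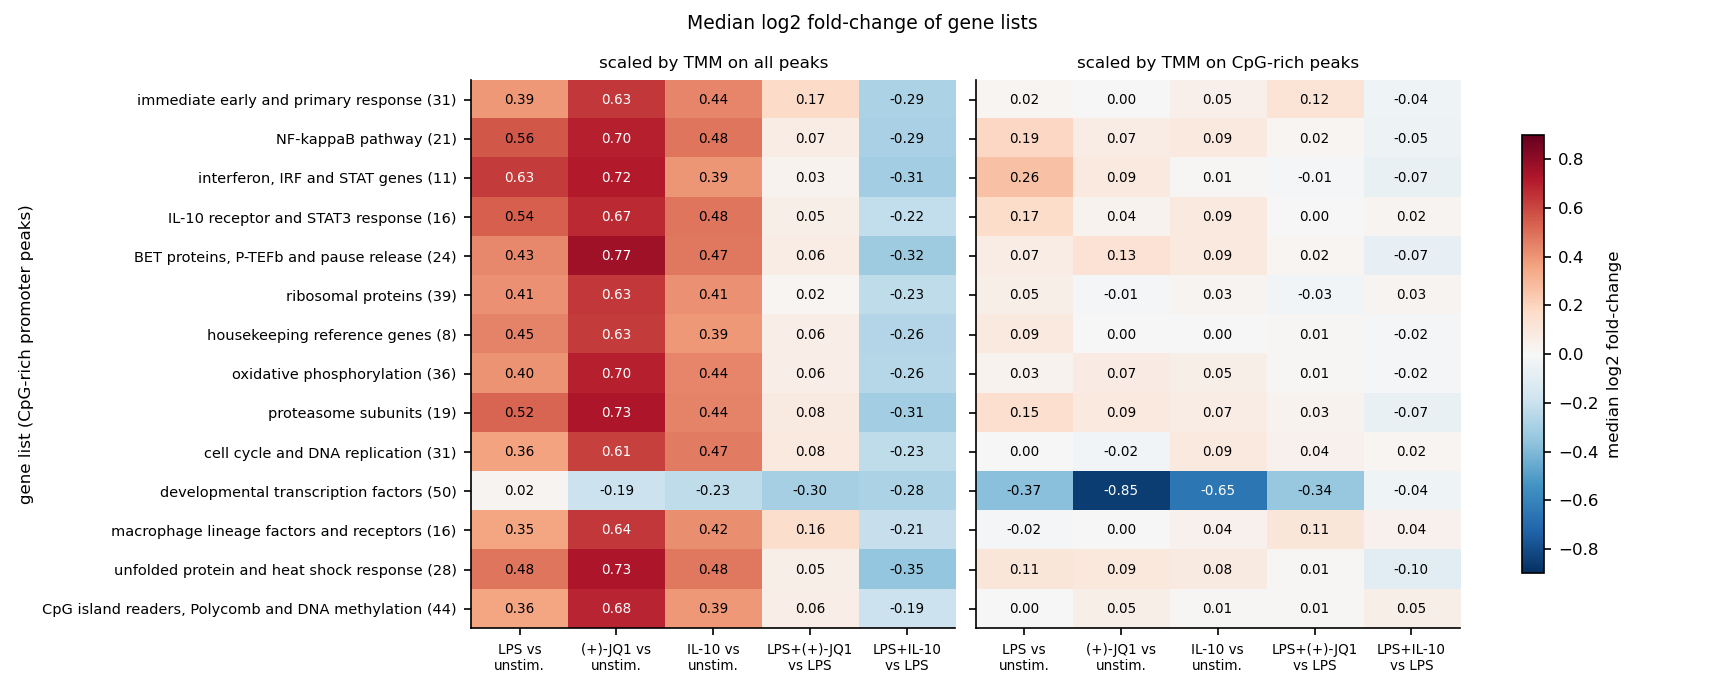
Median log2 fold-change of the CpG-rich peaks of each gene list (rows) in 5 comparisons (columns), left with TMM factors from all peaks and right with TMM factors from CpG-rich promoter peaks; the cytokine list, with 2 peaks, is left out. On the right developmental transcription factors lie at -0.37, -0.85, -0.65, -0.34 and -0.04, and with LPS the interferon, NF-kappaB, STAT3 and proteasome lists lie at 0.26, 0.19, 0.17 and 0.15.

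LPS + IL-10 against LPS addressed how IL-10 changes the LPS response. Under TMM, 6 members rose and 242 fell, 0.0895% and 3.61%, against 4.26% and 4.51% of all tested peaks, with a median of -0.24 where other promoter peaks had -0.005 and distal peaks 0.001. Relative to the members the split turned to 67 rises and 17 falls, total counts gave 10 and 85, GC offsets 41 and 34, and loess offsets 5 and 120. Under all 6 other scalings 4 rises and 17 falls held. The same-numbered medians, -0.262, -0.178 and -0.290, were the most even of the 5 comparisons. Falls numbered 68 without LPS replicate 1, 412 without LPS replicate 2, 452 without LPS replicate 3, 671 without LPS + IL-10 replicate 1 and 80 without LPS + IL-10 replicate 3.

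Gm10463 had the largest rise, 139, 143 and 123 in LPS and 263, 211 and 236 in LPS + IL-10 (0.81 ± 0.16, FDR = 6.76e-05, all 6), so that it was higher with IL-10 both at rest and after LPS. Slc16a3, the lactate exporter MCT4, went from 243, 212 and 209 to 401, 337 and 372 (0.74 ± 0.14, FDR = 3.8e-05, all 6). A peak 14.0 kb downstream of Aacs, chr5:126011759-126014030, had 0.65 (FDR = 0.0282) and Rai1 0.61 ± 0.21 (FDR = 0.0477), each in 4 of 6. The peak upstream of Mir155 had the largest fall, -1.45 ± 0.14 (FDR = 3.27e-14). Tpbg, which LPS had raised by 1.56, fell to 267, 181 and 203 (-1.12 ± 0.14, FDR = 1.57e-09), Mtap2, a microtubule-associated protein gene, had -0.98 ± 0.18 (FDR = 2.95e-05), and Atp10a, a phospholipid flippase gene, went from 669, 483 and 508 to 356, 276 and 238 (-0.93 ± 0.15, FDR = 9.99e-07). These 4 falls held under all 6 other scalings.

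Among the lists, 5 of 21 NF-kappaB peaks fell (Map3k7, Nfkb1, Nfkb2, Rel and Ripk2, by 0.51 to 0.61), 3 of 31 immediate early peaks (Btg1, Dusp2 and Klf6), 2 of 11 interferon peaks (a peak beside Tapbp among them), 2 of 16 STAT3 peaks (Cish and Etv6) and 2 of 24 BET and P-TEFb peaks (Ccnt2 and Med12), and no peak of these lists rose. Their medians were -0.29, -0.29, -0.31, -0.22 and -0.32, near the -0.24 of all members. Ripk2 had 2259.5, 1925 and 1841 in LPS and 1500.1, 1343 and 1109 in LPS + IL-10 (-0.61 ± 0.14, FDR = 0.000839, 3 of 6). None of 39 ribosomal peaks was called (median -0.23; 0 by edgeR and 14 below 0 at an unadjusted p under 0.05), nor of 36 oxidative phosphorylation peaks (-0.26; 17 below 0). Over the 318 peaks of the lists without developmental factors DESeq2 called 0 rises and 14 falls, and edgeR 0 and 19. The falls numbered 5 by total counts, 1 with GC offsets, 1 with loess offsets and 0 relative to the members, and those of NF-kappaB peaks 1, 0, 0 and 0. Socs3, at 1192, 1120.0 and 910.4, did not pass the test (-0.26 ± 0.13, FDR = 0.212).

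**Figure D5:**
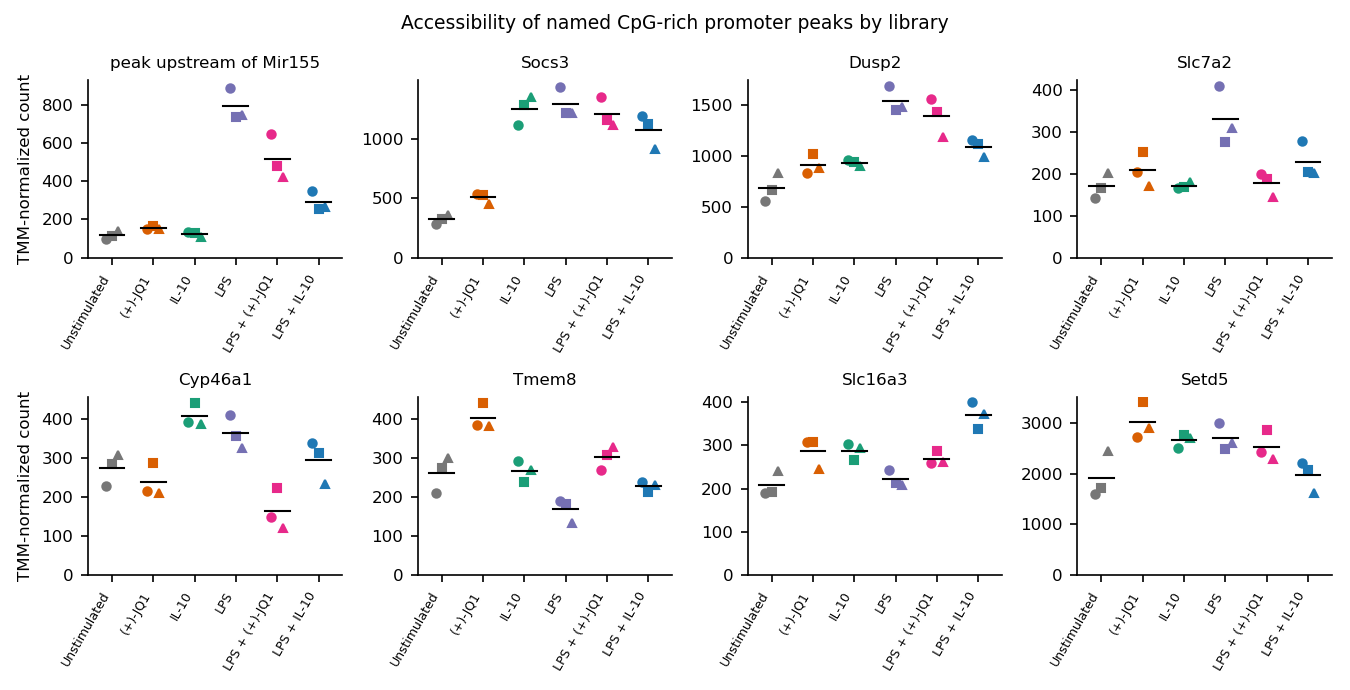
TMM-normalized counts (y axis, from 0) of 8 CpG-rich promoter peaks in the 18 libraries by group; circles, squares and triangles are replicates 1, 2 and 3 and lines are group means. The peak upstream of Mir155 is high with LPS and lower with either agent, Socs3 is as high with IL-10 alone as with LPS, Tmem8 and Cyp46a1 move in opposite directions with LPS + (+)-JQ1, and in Setd5 the lowest libraries are unstimulated replicates 1 and 2 and LPS + IL-10 replicate 3.

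The size of the class-wide differences ran with peak strength. From the weakest to the strongest of 4 equal bins of members (limits 16.3, 30.4 and 43.2 CPM) the median with (+)-JQ1 went 0.04, 0.61, 0.70 and 0.77, with LPS 0.05, 0.34, 0.41 and 0.45, with IL-10 0.04, 0.37, 0.43 and 0.47, and with LPS + IL-10 against LPS -0.15, -0.16, -0.25 and -0.34. Other promoter peaks of the strongest range, 386 in all, had 0.72, 0.48, 0.48 and -0.31 in the same 4 comparisons, and the 184 distal peaks of that range 0.52, 0.45, 0.43 and -0.10. The 1199 promoter peaks that met the ratio but not the GC limit, at a median of 25.1 CPM, had 0.62, 0.38, 0.39 and -0.22. The 3434 that met the GC limit alone, at 4.40 CPM, had 0.02, -0.001, 0.04 and -0.07, and 573 distal peaks under 4000 bp that met both limits, at 5.07 CPM, had 0.09, 0.12, 0.09 and -0.15. Among members, those with a ratio of 0.6 to 0.7 had 0.54 with (+)-JQ1 and those of 1.0 or more 0.66, at 21.6 and 37.8 CPM. Members with a divergent partner as defined above, at 39.0 CPM, had 0.73, and other members 0.62, at 29.0 CPM. Whether strength, base composition or the depth of unstimulated replicate 1 carries this was not tested.

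Calls also differed with motif content, as a description in which peak strength was not held equal. With LPS 31.5% of the 111 members with kappaB letters rose against 20.3% of those without. Of the 429 with the interferon element 28.7% rose against 19.9%. Other letters had higher shares as well, AGCCAAT 27.4% against 19.8%, AP-1 25.98% and ETS 25.8%. The letters CACGTG had 17.8% against 20.8%. TATAAA and the cyclic AMP response element also lay below members without them. Median log2 fold-changes with LPS were 0.429 for AGCCAAT, 0.419 for ETS and 0.415 for the cyclic AMP response element. KappaB letters had 0.408 and the interferon element 0.396. With (+)-JQ1 93.7% of the 473 with ETS letters rose against 66.2%, and 83.2% of the 986 with NRF1 letters against 65.5%. The cyclic AMP response element had 86.4% and AGCCAAT 81.3%, while kappaB letters had 64.0% against 68.2% without. With LPS + IL-10 against LPS 8.11% of members with kappaB letters (9 peaks) fell against 3.54%, and 7.69% with the interferon element (33 peaks) against 3.33%. AP-1 letters had 5.69% and AGCCAAT 5.48%, while NRF1 letters had 2.94% and ETS letters 2.96%, below members without them. With LPS + (+)-JQ1 against LPS the shares that fell were 4.50% with kappaB letters (5 peaks) and 1.72% over all members.

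The effects of each agent at rest and after LPS come from separate libraries and could be set side by side. Across the 6701 members the fold-changes of (+)-JQ1 alone and of LPS + (+)-JQ1 against LPS had Pearson r = 0.50 and Spearman rho = 0.50, and those of IL-10 alone and LPS + IL-10 against LPS -0.05 and -0.26. The peaks of one comparison share its libraries and the trend with strength, so these values are descriptions. With (+)-JQ1 31 members rose in both settings, 8 fell in both and 1 rose at rest and fell after LPS. With IL-10 1 rose in both, 1 fell in both and 91 rose at rest and fell after LPS.

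The interaction, the difference between an agent's effect after LPS and at rest, was tested in the same fit, a comparison added after the data had been seen. For (+)-JQ1 it was above 0 at 1 member and below 0 at 2721, against 0.649% and 3.19% of all tested peaks, with a median of -0.58. For IL-10 it was above 0 at 2 members and below 0 at 3539, against 2.01% and 5.9%, with a median of -0.61. Relative to the members, which sets their median close to 0, these counts turned to 187 and 2 for (+)-JQ1 and 420 and 49 for IL-10. By total counts they were 10 and 854 for (+)-JQ1 and 21 and 1827 for IL-10, and with loess offsets 6 and 29, and 18 and 150. The number of calls thus rests on the scaling. Under all 6 other scalings 1 and 1 held for (+)-JQ1 and 2 and 27 for IL-10. Under TMM the below-0 count for (+)-JQ1 was 4821 without unstimulated replicate 3 and 431 without LPS replicate 1.

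Single members with the largest interactions are given by name. Socs3 had -2.21 ± 0.19 for IL-10 (FDR = 7.14e-15), having risen with IL-10 at rest but not over LPS, and the peak upstream of Mir155 -1.53 ± 0.22 (FDR = 5.89e-07), where IL-10 lowered the LPS group alone. St3gal3, a sialyltransferase gene, had -1.32 ± 0.20 (FDR = 1.53e-06), with means of 624 ± 141 unstimulated, 887 ± 58.1 with IL-10, 1230.1 ± 108 with LPS and 697 ± 135 with LPS + IL-10 (SD, n = 3). Slc7a2 had -1.21 ± 0.22 for (+)-JQ1 (FDR = 0.000578), the 1 member below 0 under all scalings, with means of 170.0 ± 30.03 unstimulated, 209 ± 41.5 with (+)-JQ1, 331 ± 70.3 with LPS and 177 ± 28.5 with LPS + (+)-JQ1. Gnao1, a G protein subunit gene, had -1.29 ± 0.24 (FDR = 0.000637). Rai1, a chromatin-associated regulator, was above 0 for both agents, 1.13 ± 0.30 (FDR = 0.0171) and 0.98 ± 0.29 (FDR = 0.0222), with means of 84.5 ± 9.22 unstimulated, 61.1 ± 11.7 with (+)-JQ1, 65.7 ± 8.04 with IL-10, 49.3 ± 4.49 with LPS, 79.3 ± 13.3 with LPS + (+)-JQ1 and 75.6 ± 6.88 with LPS + IL-10. Fam123a was above 0 for IL-10 (0.71 ± 0.22, FDR = 0.0278). Rai1 thus fell with LPS alone and stood near its unstimulated level when either agent came first, and this was the only member above 0 in both interactions.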

How the data were processed

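ATAC-seq libraries of 18 macrophage cultures were made by the authors with PEPATAC: reads were aligned to mm9 with Bowtie2, peaks were called per library with MACS2 and merged to 1 union set, and ChIPseeker called a peak a promoter from 1000 bp before to 100 bp after a start site. The deposited tables hold raw counts per peak and library, with no normalization, and the counting tool is not given in the sources used here. The union table has 6 further columns that match no sample here and were not used.

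Counts were fitted with edgeR 4.0.16 (R 4.3.3; filterByExpr, TMM, quasi-likelihood test, 1 coefficient per group, all 18 libraries), and p-values were adjusted by Benjamini-Hochberg over the 194230 peaks kept. The filter removed 54 peaks and no member. DESeq2 1.42.0 was an alternative, as were other scalings, lane or replicate number as a term, other filters, a stricter sequence rule and leaving out each library. Library depth, 12020526 to 25908198 counts in peaks, gave a median of 578.5 counts per member. In a test on data simulated for LPS against unstimulated over 193329 peaks, 188 of 200 peaks changed by 1 on the log2 scale were recovered, with 9 false calls. The simulated counts held no shift of the class and no deviation shared by the members within a library. The test therefore does not measure false calls from either. GC content, CpG ratio, annotation and sequences were read from mm9 (NCBIM37) and GENCODE vM1.

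Named peaks were, per comparison, the 4 largest rises and falls among called members with a mean of at least 50 normalized counts and 1 direction in all same-numbered pairs, from each gene list the 3 largest changes with LPS and the largest with LPS + (+)-JQ1 against LPS, and the 5 strongest members. List members given by their fold-change alone, and the interaction peaks, were named after their values were seen. The members and gene lists were chosen with earlier results of these data known.

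The series describes its samples as matched across conditions, and same-numbered libraries were taken as the matched ones, which the labels do not state. Deviations from the group means of same-numbered libraries correlated at a mean r of 0.00573 over all peaks (-0.0819 to 0.0644) and 0.00202 over members (-0.272 to 0.185). Shares of counts were compared by exact permutation tests. Results for some genes and 1 sequence are not reported here.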

Additional observations from a re-analysis of the deposited data

Results flagged for a closer look

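Under TMM the effect of each agent after LPS differed from its effect at rest at many members. The test was of the difference itself, the interaction term, and was added after the data had been seen. For (+)-JQ1 the term was above 0 at 1 CpG-rich promoter peak and below 0 at 2721 (40.6%), against 0.649% and 3.19% of all tested peaks. For IL-10 it was above 0 at 2 and below 0 at 3539 (52.8%), against 2.01% and 5.9%. The 1 peak above 0 for (+)-JQ1 was Rai1, and the 2 for IL-10 were Rai1 and Fam123a. With TMM factors from the members alone the counts were 187 above and 2 below for (+)-JQ1 and 420 above and 49 below for IL-10. By total counts they were 10 above and 854 below for (+)-JQ1 and 21 and 1827 for IL-10, and with GC offsets 35 and 572, and 123 and 1225. Under all 6 other scalings 1 above and 1 below held for (+)-JQ1, and 2 above and 27 below for IL-10. The number of calls thus rests on the scaling. Their direction turned with the factors from the members alone, which set the members' median close to 0. All of these counts share the unstimulated and LPS libraries.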

How the results depend on the processing

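Counts of members that rose and fell are given as pairs, in the order of the report: LPS, (+)-JQ1 and IL-10 over unstimulated cells, each agent before LPS over LPS alone ((+)-JQ1, then IL-10), and the interactions of (+)-JQ1 and IL-10. Scaling by total counts gave 168 and 226, 1534 and 198, 38 and 102, then for LPS + IL-10 10 and 85 with a median of -0.178, and 10 and 854, 21 and 1827 for the interactions. TMM factors from the members alone gave 79 and 413, 1 and 870 (median 0.0056), 3 and 306 (0.0034), 21 rises for LPS + (+)-JQ1, 67 and 17 (0.0037), 187 and 2, and 420 and 49, which is close to no shift by its construction. Loess offsets on strength gave 118 and 102, 55 and 36 (0.0737), 7 and 17 (-0.0005), 22 and 135, 5 and 120 (-0.110), 6 and 29, and 18 and 150. Offsets on GC content gave 507 and 224, 1409 and 305 (0.234), 277 and 118, for LPS + IL-10 41 and 34 (-0.069), 35 and 572, and 123 and 1225. For the remaining differences between scalings the cause was not tested.

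With the replicate number as a block (replicate block) the counts were 1409 and 55, 4576 and 30, 1368 and 24, 37 and 115, 6 and 247, 1 and 2312, and 2 and 3386, and no count moved by over 1.5 times. The replicate block with GC offsets gave 516 and 224, 1415 and 305 (0.235), 285 and 124, 43 and 34 (-0.07), 31 and 472, and 114 and 1184. A minimum of 10 counts in every library, which tests fewer peaks, gave 659 and 89 with LPS, 66 falls with (+)-JQ1, 272 and 45 with IL-10, 25 rises with LPS + (+)-JQ1 and 12 in the IL-10 interaction. DESeq2 gave 11 falls with (+)-JQ1 and 13 with IL-10. The stricter sequence rule, with 3488 members, gave 719 and 17, 2515 and 9, 662 and 10, 14 and 60, 2 and 126, 1646 below 0, and 1 and 1960, and shares of 10.5%, 14.1%, 12.3%, 12.0%, 12.3% and 10.4% for unstimulated, (+)-JQ1, IL-10, LPS, LPS + (+)-JQ1 and LPS + IL-10. As a share of promoter counts only, these were 41.9%, 48.5%, 45.5%, 44.6%, 45.2% and 41.2%.

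Leaving out each library in turn, rises and falls ranged from 414 to 3652 and 37 to 69 with LPS (median 0.244 to 0.530), from 3406 to 5084 and 11 to 48 with (+)-JQ1 (0.509 to 0.804), from 206 to 4113 and 1 to 49 with IL-10 (0.264 to 0.557), from 20 to 66 and 54 to 115 with LPS + (+)-JQ1 (-0.0107 to 0.111) and from 3 to 9 and 68 to 671 with LPS + IL-10 (-0.291 to -0.183). Falls with (+)-JQ1 were 11, 12, 13 and 17 without unstimulated replicate 2, unstimulated replicate 1, (+)-JQ1 replicate 1 and (+)-JQ1 replicate 3. Falls with IL-10 were 1, 16, 16, 15 and 6 without unstimulated replicates 1 and 2 and IL-10 replicates 1, 2 and 3, and both counts were highest without unstimulated replicate 3. Rises with LPS + IL-10 were 3 without LPS replicate 3, and falls with LPS were 37 without it. The interactions ranged from 0 to 6 above and 431 to 4821 below 0 for (+)-JQ1, with 0 above without unstimulated replicate 2, (+)-JQ1 replicate 1, LPS replicate 1 or LPS + (+)-JQ1 replicate 3, and with 1229, 764, 807, 1644 and 442 below without unstimulated replicates 1 and 2, (+)-JQ1 replicate 2 and LPS + (+)-JQ1 replicates 1 and 3. For IL-10 they ranged from 1 to 5 and 2447 to 4762. The highest counts of both interactions came without unstimulated replicate 3, and the IL-10 interaction had 1 above 0 without unstimulated replicate 1, IL-10 replicate 1 or 2, LPS replicate 2 or 3, or LPS + IL-10 replicate 1 or 3. Shares ranged from 17.0% to 19.0% unstimulated, 23.2% to 24.6% with (+)-JQ1, 21.0% to 21.2% with IL-10, 19.9% to 20.8% with LPS, 20.5% to 21.5% with LPS + (+)-JQ1 and 17.5% to 18.3% with LPS + IL-10.

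Of 97 results of single named peaks, 64 kept direction and side of the threshold relative to the members, 58 under loess offsets, 76 by total counts, 80 with GC offsets, 89 with DESeq2 and 96 with the replicate block, and none reversed. The weakest members rest on few counts, and 3 cultures per group limit every p-value.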
